A study of Mus musculus with 13 samples.

Results

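Mast cells of embryonic mouse back skin were described in single-cell transcriptomes of skin microdissected at the embryonic ages E14.5 and E16.5 (E for days of gestation). A kept cell had 600 to 4800 detected genes in the embryonic libraries, or 900 to 7700 in those of the epidermis at birth, and at most 10% of its UMIs (unique molecular identifiers, 1 for each transcript captured) from mitochondrial genes. A kept cell was taken as a mast cell when at least 2 of the 4 genes Cpa3, Cma1, Tpsb2 and Mcpt4 were detected, when these genes summed to at least 5 UMIs per 10000, and when C1qa and C1qb together gave no more than 2 UMIs. This gate held 1671 of the 51655 kept cells of the 8 embryonic libraries, or 3.23%, out of 86507 kept cells in all 13 libraries of the series. Each age had 2 libraries of wild-type (WT) C57BL/6 embryos and 2 of Grhl3 -/- (KO) embryos, mutant for a grainyhead-like transcription factor of the epidermis, with a male and a female of each genotype. The 4 libraries of an age were littermates of 1 pregnancy, so age cannot be told apart from litter, and p-values here measure the spread between libraries. All KO embryos had spina bifida, and the skin was taken anterior to the defect. The remaining 5 libraries held epidermis at P0 (the day of birth), 2 of WT, 2 of KO and 1 of WT labelled Chromium v1.

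Mast cells arise from blood-forming progenitors, reach the tissue through the circulation and mature in place, with Kit and its ligand as their main survival signal. They store histamine, serotonin, proteoglycan and large amounts of serine and carboxypeptidase proteases in secretory granules, and release them when IgE bound to its high-affinity receptor is crosslinked or when basic peptides engage the receptor Mrgprb2. Connective tissue mast cells of the skin are known for chymases, tryptases and carboxypeptidase A3. Cpa3 encodes that carboxypeptidase, Cma1 and Mcpt4 encode chymases and Tpsb2 encodes a tryptase.

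The gate was first set against genes it did not use. At least 2 of 7 other mast cell genes (Ms4a2, Fcer1a, Hdc, Tph1, Slc18a2, Il1rl1 and Cd200r3) were detected in 91.7 to 96.0% of the gated cells of a library at E14.5 and in 72.4 to 89.5% at E16.5. Of the 1671 cells 1434 met both definitions (85.8% of the gate and 95.7% of the cells with 2 of the other markers). Fcer1a, the IgE-binding chain of the high-affinity receptor, gave 53 UMIs over all gated cells, 25 of them in E14.5 KO replicate 2, whereas the chains Ms4a2 and Fcer1g were readily counted.

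The share of gated cells that carried 2 of the other markers was low near the limit of the rule and high at large marker sums. At E16.5 there were 36 cells with a marker sum of 5 to 6 UMIs per 10000 and none of them carried 2 of the other markers. In these cells Hdc, the histamine-synthesizing enzyme, stood at 0.33 UMIs per 10000 and the collagen gene Col1a1 at 74.9. In the 603 E16.5 cells with a sum of 400 or more the values were 103 for Hdc and 3.85 for Col1a1, and 95.4% of them carried 2 of the other markers. Just outside the limit, at a sum of 4 to 5, there were 99 cells at E16.5 and 15 at E14.5. Among the kept cells outside the gate, 22.2 to 25% carried a Cma1 UMI at E16.5 and 6.83 to 12.1% did at E14.5. Where it bears on a result, the value in the 1434 cells that met both definitions is given too, a comparison added after the data had been seen.

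Depth and identity of the libraries were as follows. The 8 embryonic libraries held 57270821 to 79416872 UMIs, and the gated cells summed to 1206023 to 2187261 UMIs per library. A gated cell had a median of 7492 to 11897 UMIs at E14.5 and of 4247.5 to 5163 at E16.5, against 7473 to 8901.5 over all kept cells, so that levels are given per 1000000 UMIs of the gated cells (CPM) and, where it matters, as UMIs per cell. At most 1 gated barcode was shared by any of the 28 pairs of libraries. Grhl3 itself gave 0 to 3 UMIs per library in gated cells. In other cells Grhl3 stood at 4.79, 7.71, 4.44 and 10.5 CPM at E14.5 (WT replicates 1 and 2, then KO replicates 1 and 2, the order used below) and at 4.2, 6.95, 1.61 and 0.761 CPM at E16.5. The libraries labelled KO were thus lower at E16.5 and not at E14.5, and since the sources used here do not describe the deleted part, a count at the 3′ end may not report the deletion.

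The mast cell share of kept cells was not separated between the ages by the test. Gated cells numbered 154, 101, 252 and 192 at E14.5 and 294, 251, 200 and 227 at E16.5. As a share of kept cells this was 2.92, 1.68, 4.13 and 2.76% at E14.5 and 3.38, 3.76, 3.68 and 3.5% at E16.5. The E16.5 libraries lay close together and inside the wide range of the E14.5 libraries, and the means were 2.87% ± 1.0 and 3.58% ± 0.175 (SD, n = 4 libraries each). The share at E16.5 was 1.31-fold that at E14.5 (0.39 on the log2 scale), a difference within the spread of the libraries (p = 0.171, exact permutation test, two-sided). Without E14.5 KO replicate 1 the difference was 0.58 with an exact permutation p of 0.0286. In cells chosen by the 7 other markers it was 0.16, with an exact permutation p of 0.629.

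**Figure D1:**
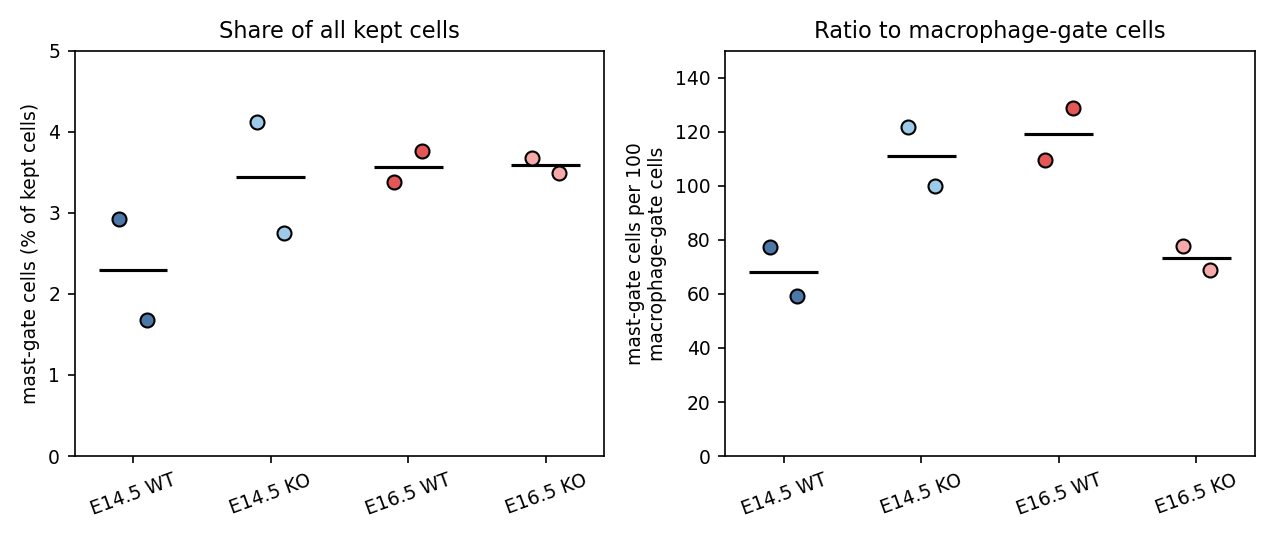
Mast-gate cells as a percentage of kept cells (left) and per 100 macrophage-gate cells (right), with 1 point per library and a bar at the mean of the 2 libraries of a group. The share of kept cells ran from 1.68 to 4.13% and overlapped between the ages and between the genotypes. Both E14.5 WT libraries and E14.5 KO replicate 2 lay below all 4 at E16.5. The ratio to macrophage-gate cells ran from 59.1 to 129 and was higher in KO at E14.5 and lower in KO at E16.5.

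Genotype gave no difference in share that the test could separate. The mean share was 2.94% ± 0.906 in WT and 3.51% ± 0.571 in KO (SD, n = 4 libraries each), a difference of 0.31 on the log2 scale, with an exact permutation p of 0.444 within age, where the smallest possible p is 0.0556. Macrophages, counted by at least 2 of C1qa, C1qb, C1qc and Csf1r with a sum of at least 5 UMIs per 10000, numbered 1818. At E14.5 there were 77.4 and 59.1 mast cells per 100 macrophages in WT and 122 and 100 in KO. At E16.5 the ratios were 109.7 and 129 in WT and 77.8 and 69.0 in KO. KO exceeded WT by 0.70 on the log2 scale at E14.5 and fell short of it by a log2 difference of -0.70 at E16.5. The change between ages of -1.40 had an exact permutation p of 0.0556, the smallest this design allows. This contrast was not among the planned comparisons, and it was not repeated in the cells that met both definitions. Gated cells that failed the second definition numbered 9, 4, 11 and 16 at E14.5 and 81, 45, 21 and 50 at E16.5. The macrophage share of kept cells itself was 4.73 and 5.07% in E16.5 KO against 3.08 and 2.92% in E16.5 WT.

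At P0 none of 34852 kept cells of the epidermis, with 900 to 7700 detected genes each, met the gate in any of the 5 libraries, which allows a share of up to 0.00861% by counting error alone. The P0 samples were epidermis freed of dermis, so the value cannot be compared with whole skin.

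The gated cells differed widely between the ages. UMIs summed per library were compared with the edgeR quasi-likelihood test with genotype in the model and Benjamini-Hochberg adjustment over 8686 genes. At E16.5 1823 genes were higher (21% of those tested) and 1657 lower (19.1%), so that 40.1% of all genes were called and 48.6% had an unadjusted p under 0.05, with a median log2 fold change of 0.0023. In 33.1% of all genes the call came with libraries of the 2 ages that did not overlap in CPM. WT libraries alone gave 2399 calls and KO libraries alone 1430. Counts for gene groups are read against these shares. Positive log2 fold changes stand for higher levels at E16.5 throughout.

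The levels of the 4 genes of the rule in the gate are given as a description. Cpa3 stood at 4947 to 6525 CPM at E14.5 and 10581 to 16203 CPM at E16.5, Cma1 at 13890.0 to 16058 and 26281 to 43689.9 CPM, and Tpsb2 at 4262 to 4909 and 6509 to 14772 CPM. Mcpt4 stood at 33.7 to 107 CPM at E14.5 and 437 to 1797 CPM at E16.5. Per cell this was 64.8 ± 16.4 and 77.1 ± 15.4 UMIs for Cpa3, and 0.741 ± 0.433 and 7.01 ± 3.71 UMIs for Mcpt4 (mean ± SD over 4 libraries). All 4 genes were detected in 7.94 to 15.6% of the gated cells of a library at E14.5 and in 20.3 to 34.0% at E16.5.

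To test these genes, cells were chosen by the 7 other markers alone, which gave 1498 cells. In this set 38.8% of 8097 genes were called between the ages, with 19.8% of the genes tested higher and 19% lower at E16.5. Mcpt4 stood at 102, 34, 36.4 and 99.8 CPM at E14.5 and 1238, 1788, 1975 and 535 CPM at E16.5, and the ages did not overlap. The log2 fold change of Mcpt4 was 4.47 (SE 0.43, adjusted p = 4.15e-06, edgeR). Cpa3, Cma1 and Tpsb2 rose by less, with log2 fold changes of 1.49 (SE 0.10), 1.57 (SE 0.10) and 1.53 (SE 0.17) and edgeR adjusted p values of 2.02e-07, 1.79e-07 and 1.19e-05. In each of these 3 genes the lowest E16.5 library lay above the highest E14.5 library.

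**Figure D2:**
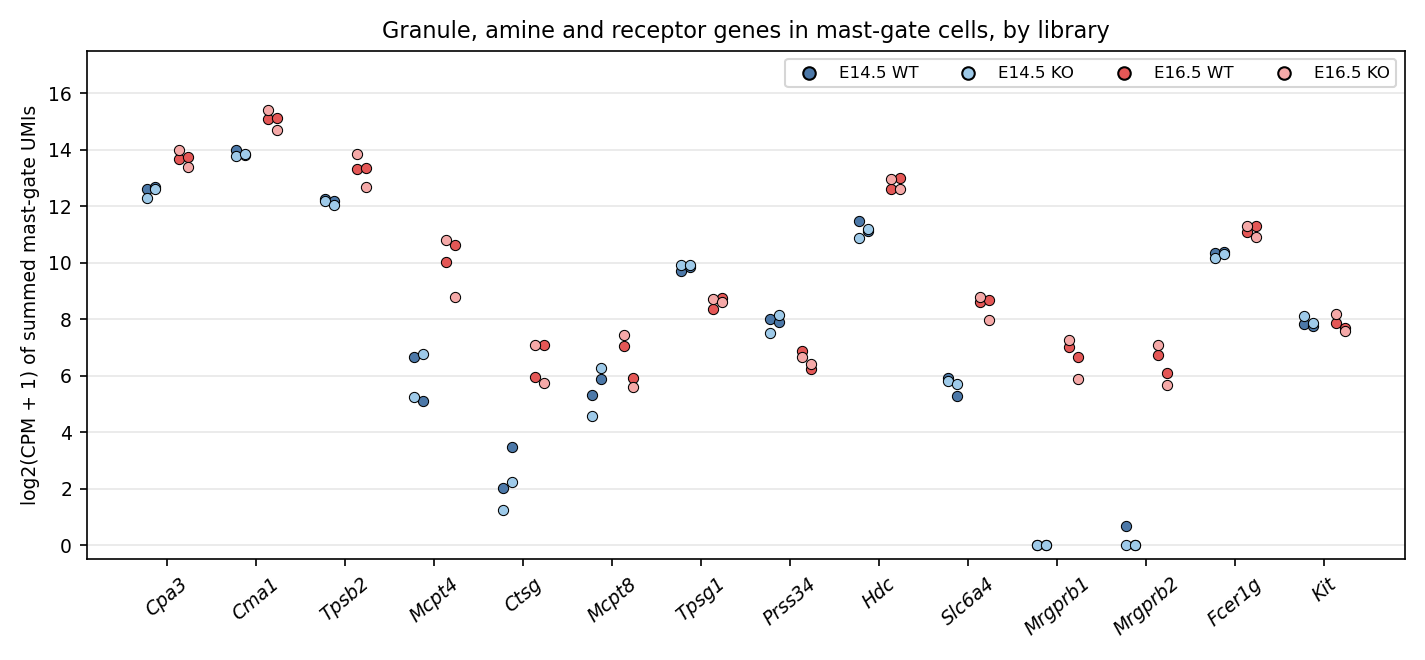
Level of 14 granule, amine and receptor genes in mast-gate cells, with 1 point per library on a scale of log2(CPM + 1), where 0 stands for no UMI. Mcpt4, Ctsg, Slc6a4, Mrgprb1 and Mrgprb2 separated the ages most widely, Tpsg1 and Prss34 were higher at E14.5, and Kit overlapped between the ages.

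The other granule proteases and matrix genes did not move as 1 block. Of 16 genes 14 were tested, 7 rose and 2 fell, with a median log2 fold change of 0.33. Ctsg, the gene of cathepsin G, a chymotrypsin-like granule protease, had 3.13, 10.2, 1.37 and 3.77 CPM at E14.5 and 61.2, 135, 136 and 53.2 CPM at E16.5. Its log2 fold change was 4.61 (SE 0.45, adjusted p = 7.8e-06, edgeR), the largest of this group. Srgn, the proteoglycan core that packs proteases in the granule, rose by 0.59 (SE 0.13), although per cell it went from 25.2 ± 4.47 to 19.1 ± 4.57 UMIs. Its call was lost in KO libraries alone. The lysosomal protease genes Ctsd and Ctsl rose by 0.96 and 2.11 on the log2 scale, or 1.18 and 1.37 in the cells that met both definitions.

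Both falling proteases lay among the tryptase genes. Tpsg1, a membrane-anchored tryptase, had 833, 929, 975 and 969 CPM at E14.5 and 327, 435, 417 and 392 CPM at E16.5. Its log2 fold change was -1.14 (SE 0.10, adjusted p = 2.69e-06, edgeR), with 9.9 ± 1.6 UMIs per cell at E14.5 and 2.27 ± 0.386 at E16.5. Prss34, a tryptase also made by basophils, fell from between 184 and 284 to between 74.2 and 115 CPM with a log2 fold change of -1.28 (SE 0.16). Mcpt8, a protease best known from basophils, had 39.4, 58, 22.9 and 76.7 CPM at E14.5 and 133, 59.1, 175 and 48.1 CPM at E16.5. Its log2 fold change of 1.18 passed with an edgeR adjusted p of 0.0324, the ages overlapped, and leaving out any of 5 libraries ended the call (adjusted p up to 0.19, without E16.5 KO replicate 1). For Tpsab1, Cma2, Mcpt2, Gzmb and Ndst2 the log2 fold changes were 0.14, 0.07, -0.47, -0.39 and -0.06, and none passed the test.

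These proteases sit in dense gene clusters. On the mouse build GRCm38, with GENCODE M21 gene models, a chymase cluster on chromosome 14 runs from Cma1 (chr14:55941451-55944675, minus strand) over Cma2, Mcpt2, Mcpt4 (chr14:56059629-56062313, minus strand), Mcpt8 and Ctsg (chr14:56099881-56102574, minus strand) to Gzmb (chr14:56258838-56262260, minus strand). Along it Cma1, Mcpt4 and Ctsg were higher at E16.5, and Mcpt8 was called higher with the ages overlapping. Cma2, Mcpt2 and Gzmb did not pass the test. A tryptase cluster on chromosome 17 holds Prss34 (chr17:25298394-25300165, plus strand), Tpsab1, Tpsb2 (chr17:25366305-25369098, plus strand) and Tpsg1 (chr17:25369273-25374442, plus strand). The neighbours Tpsb2 and Tpsg1 moved in opposite directions. Members of a cluster are alike in sequence, and how reads of shared sequence were divided among them is uncertain. Mcpt1 and Mcpt9 gave 19 and 2 UMIs in all gated cells.

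Because GATA factors are known regulators of mast cell genes, the 250 bases before the start of 8 genes are shown. The 8 were chosen among genes that separated the ages widely or carried the gate. The bases shown are RefSeq sequences of the build GRCm38.p6, read on the strand of the gene, and capitals mark GATAA or its reverse complement TTATC. The windows are chr3:20242182-20242431 (minus strand) for Cpa3, chr14:55944676-55944925 (minus) for Cma1, chr14:56062311-56062560 (minus) for Mcpt4, chr14:56102575-56102824 (minus) for Ctsg, chr7:48456343-48456592 (minus) for Mrgprb1, chr7:48558087-48558336 (minus) for Mrgprb2, chr7:114636358-114636607 (minus) for Calca and chr6:7554811-7555060 (plus) for Tac1.
Cpa3: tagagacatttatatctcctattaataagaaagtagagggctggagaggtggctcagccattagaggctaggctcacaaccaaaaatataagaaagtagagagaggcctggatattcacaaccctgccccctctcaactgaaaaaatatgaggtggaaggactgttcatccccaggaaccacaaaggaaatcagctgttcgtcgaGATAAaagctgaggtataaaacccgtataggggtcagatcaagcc
Cma1: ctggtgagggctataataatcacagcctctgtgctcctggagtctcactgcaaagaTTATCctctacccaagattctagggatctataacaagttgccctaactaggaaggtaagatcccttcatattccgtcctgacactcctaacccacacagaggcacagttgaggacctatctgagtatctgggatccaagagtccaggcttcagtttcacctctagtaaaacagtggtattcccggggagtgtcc
Mcpt4: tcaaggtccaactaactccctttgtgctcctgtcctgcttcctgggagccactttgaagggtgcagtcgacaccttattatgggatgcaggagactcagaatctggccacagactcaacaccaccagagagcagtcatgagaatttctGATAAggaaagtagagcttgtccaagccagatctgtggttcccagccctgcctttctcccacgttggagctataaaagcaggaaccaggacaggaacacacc
Ctsg: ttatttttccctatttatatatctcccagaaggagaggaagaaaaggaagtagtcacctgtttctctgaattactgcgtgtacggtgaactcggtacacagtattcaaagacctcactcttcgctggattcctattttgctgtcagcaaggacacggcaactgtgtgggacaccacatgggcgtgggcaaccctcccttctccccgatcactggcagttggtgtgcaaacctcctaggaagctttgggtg
Mrgprb1: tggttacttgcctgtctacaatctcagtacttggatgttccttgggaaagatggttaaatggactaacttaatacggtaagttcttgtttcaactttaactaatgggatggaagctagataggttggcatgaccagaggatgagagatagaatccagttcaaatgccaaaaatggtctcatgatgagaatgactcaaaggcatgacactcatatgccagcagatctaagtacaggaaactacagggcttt
Mrgprb2: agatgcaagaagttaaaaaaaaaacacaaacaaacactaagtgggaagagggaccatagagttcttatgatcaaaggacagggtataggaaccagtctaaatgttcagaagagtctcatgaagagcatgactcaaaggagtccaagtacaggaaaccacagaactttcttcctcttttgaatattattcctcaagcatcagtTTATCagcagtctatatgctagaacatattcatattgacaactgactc
Calca: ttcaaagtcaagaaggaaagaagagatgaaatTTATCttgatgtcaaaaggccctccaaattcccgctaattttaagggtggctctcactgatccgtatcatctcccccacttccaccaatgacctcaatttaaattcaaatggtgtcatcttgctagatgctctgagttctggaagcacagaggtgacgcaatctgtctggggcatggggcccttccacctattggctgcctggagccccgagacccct
Tac1: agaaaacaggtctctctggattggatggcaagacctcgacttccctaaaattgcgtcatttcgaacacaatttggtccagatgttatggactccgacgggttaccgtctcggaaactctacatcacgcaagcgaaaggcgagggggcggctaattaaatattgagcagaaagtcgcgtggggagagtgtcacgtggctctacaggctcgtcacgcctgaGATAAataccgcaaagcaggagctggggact

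GATAA on either strand stood once in 6 of these 8 windows, 45 bases before the start in Cpa3, 194 in Cma1, 102 in Mcpt4, 48 in Mrgprb2, 218 in Calca and 31 in Tac1. GATAA and TTATC, the only letters searched here, were not in the windows of Ctsg and Mrgprb1. Other GATA sequences were not looked for, and the Mrgprb1 window holds GATAG. Windows were found for 22 of 26 genes looked for (not for Tpsb2, Tpsab1, Cma2 and Mcpt2), and the first window of 11 of them held GATAA, as did 22.6% of all 32851 promoter windows of that length. The falling genes Tpsg1, Prss34 and Alox5 were among those with a match, and the rising genes Hdc, Slc6a4, Ramp1 and Ctla2a among those without. Ctla2a and Ramp1 are not among the 8 shown, although they rose by 5.36 and 4.06 on the log2 scale. A further window of Ctla2a held GATAA. A match is only a run of letters and is no evidence of binding. By global alignment the windows of Cpa3 and Mcpt4 were identical at 50.8% of the window length and those of Cma1 and Mcpt4 at 56.4%. The windows of Mrgprb1 and Mrgprb2 were identical at 52.4%. For Mcpt4 and Mcpt1, which lies in the same cluster and was barely counted, the value was 83.6%.

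Genes for stored amines rose in part. Of 7 genes 6 were tested, 3 rose and none fell, with a median of 0.36. Hdc had 2841, 2249, 1896 and 2356 CPM at E14.5 and 6291, 8200.3, 7926 and 6203 CPM at E16.5. The log2 fold change of Hdc was 1.72 (SE 0.12, adjusted p = 7.28e-07, edgeR), with 25.1 ± 5.95 UMIs per cell at E14.5 and 41.3 ± 7.55 at E16.5. Slc6a4, the serotonin transporter of the cell membrane, had 59.4, 38.4, 54.9 and 50.8 CPM at E14.5 and 385, 413, 446 and 252 CPM at E16.5. Its log2 fold change was 2.96 (SE 0.19, adjusted p = 4.46e-07, edgeR), and other cells held 0.172 and 0.455 CPM. Slc18a2, which loads amines into granules, passed at 0.45 with an adjusted p of 0.0262 in edgeR, a call that ended when any of 6 libraries was left out (adjusted p up to 0.128, without E16.5 KO replicate 1). Tph1, Ddc and Maob, which make and degrade serotonin and related amines, did not pass the test (-0.35, -0.06 and 0.26).

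Among surface receptors 15 of 20 were tested, 10 rose and none fell, with a median of 0.74. Mrgprb2, the mouse receptor for basic secretagogues, gave 1, 0, 0 and 0 UMIs at E14.5 and 162, 98, 162 and 68 at E16.5, a ratio of 634 per total UMIs with a counting interval of 113 to 25104. Mrgprb1, a neighbouring gene of the same family on chromosome 7, gave no UMI at E14.5 and 200, 147, 186 and 78 UMIs at E16.5. Its level was at least 264-fold higher at E16.5, set against a floor of 3 counts over the E14.5 libraries together. Both genes passed the edgeR test (adjusted p = 7.2e-07 for Mrgprb2 and 3.41e-06 for Mrgprb1), and each E16.5 library, WT or KO, held at least 68 UMIs of Mrgprb2 and 78 of Mrgprb1. These counts cover counting error only and came from 699 gated cells at E14.5 and 972 at E16.5.

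Csf2rb2, a beta chain of the interleukin-3 receptor, went from between 10.5 and 20.6 to between 52.5 and 105 CPM with a log2 fold change of 2.43 (SE 0.17), and Il3ra, the alpha chain, rose by 1.01 (SE 0.15). Cd33, a sialic acid-binding receptor, rose from between 1.57 and 2.82 to between 20.7 and 45.6 CPM (3.80, SE 0.32, adjusted p = 3.06e-06, edgeR). Fcer1g, the signalling chain shared by Fc receptors, had 1308, 1340.2, 1161 and 1254 CPM at E14.5 and 2156, 2516, 2547 and 1941 CPM at E16.5, a log2 fold change of 0.95 (SE 0.09). Its count per cell was 13.6 ± 2.8 UMIs at E14.5 and 13.2 ± 2.08 at E16.5, so the rise was one in the share of the cell's transcripts. Ms4a2, the beta chain of the IgE receptor, had an adjusted p of 0.0495 in edgeR and lost the call without any 1 of the 8 libraries.

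Kit did not pass the test. The receptor had 226, 215, 273 and 231 CPM at E14.5 and 234, 207, 288 and 191 CPM at E16.5, with a log2 fold change of 0.06 (SE 0.13, adjusted p = 0.76, edgeR), and the ages overlapped. Per cell Kit gave 2.5 ± 0.171 UMIs at E14.5 and 1.32 ± 0.277 at E16.5. Il1rl1, the interleukin-33 receptor, had a log2 fold change of 0.38 and did not pass the test either. In the cells that met both definitions the log2 fold change of Kit was 0.33 (adjusted p = 0.051, edgeR).

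Neuropeptide genes stood among the largest rises. By the rule for naming genes (mean log2 CPM of at least 6, no overlap of the ages), the 10 with the largest rise were Calca, Acta1, Ctla2a, Krt17, Tac1, Mcpt4, Krt14, Ramp1, Krt5 and BC100530, of which Mcpt4 belongs to the rule and is listed as a description. Calca encodes calcitonin and, by alternative splicing, the neuropeptide CGRP, which these counts do not separate. It gave 12, 3, 9 and 9 UMIs at E14.5 and 603, 933, 500 and 183 UMIs at E16.5, from between 2.35 and 7.5 to between 135 and 641 CPM. The log2 fold change of Calca was 6.41 (SE 0.42, adjusted p = 4.49e-07, edgeR), and it was 6.67 in the cells that met both definitions. Other cells held 1.36 CPM of Calca at E14.5 and 0.961 CPM at E16.5.

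Tac1, the precursor of substance P, gave 95, 2, 38 and 26 UMIs at E14.5 and 857, 744, 809 and 817 at E16.5. The E14.5 libraries spread widely while the E16.5 libraries lay close together, and the log2 fold change was 4.79 (SE 0.47, adjusted p = 7.28e-06, edgeR), or 5.91 without E14.5 WT replicate 1. Ramp1, the partner that turns the receptor Calcrl into a CGRP receptor, gave 10, 25, 25 and 12 UMIs at E14.5 and 264, 215, 256 and 146 at E16.5 (4.06, SE 0.30, adjusted p = 9.02e-07, edgeR). Calcrl itself gave 94 UMIs in all, and Tacr1, the substance P receptor, gave none. Ctla2a, an inhibitor of cysteine proteases, had 63, 9, 14 and 80 UMIs at E14.5 and 1150, 1992, 1272 and 601 at E16.5 (5.36, SE 0.48, adjusted p = 4.01e-06, edgeR).

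**Figure D3:**
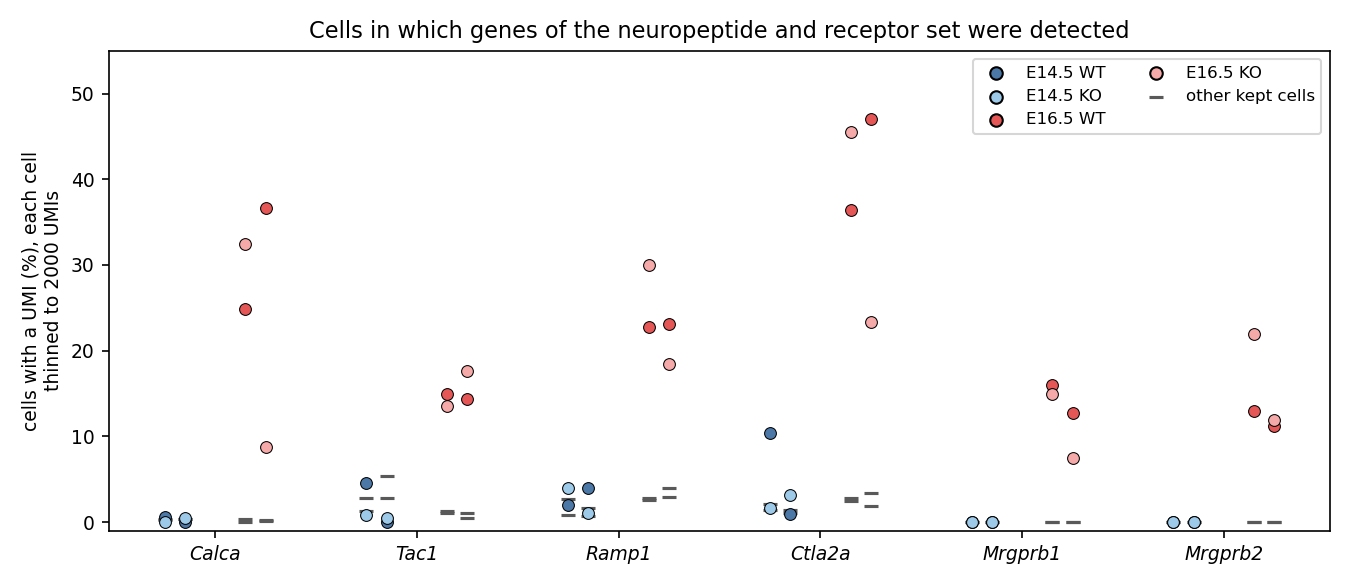
Share of mast-gate cells with a UMI of 6 genes, 1 point per library, after each cell was thinned to 2000 UMIs, and dashes for the other kept cells of the same libraries. All E16.5 libraries lay above all E14.5 libraries for each gene, and Calca was spread from 8.81 to 36.7% among them.

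The rise was seen in the share of cells as well. With each cell thinned to 2000 UMIs, which left out no gated cell, Calca was detected in 0 to 0.649% of gated cells per library at E14.5 and in 8.81 to 36.7% at E16.5. Before thinning the shares were 2.38 to 4.55% and 13.7 to 53.8%, and in thinned cells outside the gate the share was 0.267 to 0.4% and 0.0667 to 0.333%. The lowest E16.5 share of Calca came from KO replicate 2. For Tac1 the thinned shares were 0 to 4.55% at E14.5 and 13.5 to 17.6% at E16.5 (before thinning 1.98 to 5.19% and 15.5 to 20.7%), against 1.27 to 5.33% and 0.533 to 1.27% in other cells, and at E14.5 the ranges of gated and other cells overlapped. Ctla2a went from 0.99 to 10.4% to 23.3 to 47%, Mrgprb1 from 0% to 7.49 to 16% and Mrgprb2 from 0% to 11.2 to 22% (before thinning 34.8 to 64%, 10.6 to 22.5% and 15.9 to 35.5% at E16.5).

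Genes of sensory neurons, which also make both peptides, were counted beside them in a list of 10 chosen after the data had been seen. Scn10a, a sodium channel gene of these neurons, was at 0 in every library, and Prph gave 4, Nefl 6 and Isl1 7 UMIs over all gated cells. The 10 genes summed to 24 to 45 CPM at E14.5 and 60.4 to 119 CPM at E16.5 in the gate, and to 12.9 to 36.7 and 21.9 to 37.5 CPM in the cells that met both definitions. Stmn2 and Gap43, the pair that could be tested, rose in the gate (1.63 and 1.53) and did not pass the test in the cells that met both definitions (adjusted p = 0.221 and 0.262, edgeR).

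As shares of the cell's transcripts, genes of signalling below the IgE receptor and of the release machinery rose more often than they fell. A gated cell held fewer UMIs at E16.5, and values per cell are not given for these genes. Of 18 genes of Fc receptor signalling 16 were tested, 9 rose and 1 fell, with a median of 0.47. Lat2, an adaptor of the receptor complex, rose from between 156 and 209 to between 299 and 613 CPM (1.33, SE 0.19, adjusted p = 0.00014, edgeR), the adaptor Lcp2 rose by 0.81 and Rgs1, a brake on G protein signalling, by 1.02. The kinase gene Lyn rose by 0.61, a call lost in WT libraries alone. The call of Rgs1 was lost in KO libraries alone. Of 13 exocytosis genes 12 were tested, 6 rose and 2 fell, with a median of 0.53. Rab27b and Rab44, small GTPases of granule traffic, rose by 0.88 (SE 0.12) and 0.89 (SE 0.18), Snap23, a fusion protein of the plasma membrane, by 0.68, and Cplx2, which regulates fusion, by 2.40. Cplx2 was too low to be tested in the cells that met both definitions, with 0.652 to 1.88 CPM at E14.5 and 1.92 to 4.76 CPM at E16.5, and its mean in other cells was 12.9 and 10.9 CPM. Unc13d, a priming factor, fell from between 33.8 and 49.4 to between 19.5 and 24 CPM (-0.90). The calls of Rab44 and Snap23 were lost in KO libraries alone.

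**Figure D4:**
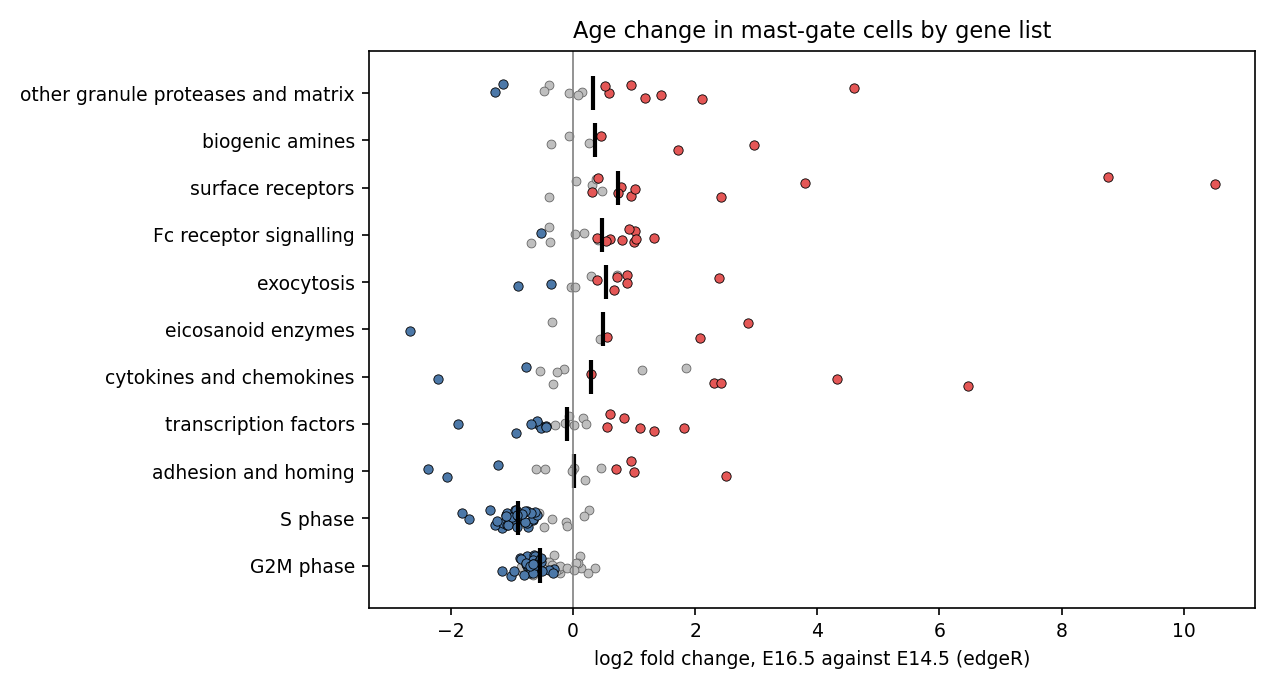
Log2 fold change between ages in mast-gate cells for the tested genes of 11 lists, 1 point per gene, with a black bar at the median, red for genes called higher at E16.5, blue for genes called lower and grey for genes not called. Surface receptors held no called decrease, the cell cycle lists held no called increase, and the transcription factors were divided with a median of -0.10.

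Lipid mediators were divided. Of 10 eicosanoid genes 6 were tested, 3 rose and 1 fell, with a median of 0.50. Alox5, the first enzyme of leukotriene synthesis, had 41.3, 73.7, 80.9 and 65.4 CPM at E14.5 and 5.2, 6.18, 17.4 and 10.4 CPM at E16.5. The ages did not overlap, and the log2 fold change was -2.68 (SE 0.26, adjusted p = 6.24e-06, edgeR). Hpgds, the haematopoietic prostaglandin D synthase, had 36.9, 22.7, 18.3 and 29.2 CPM at E14.5 and 122, 115, 120.2 and 71.7 CPM at E16.5, a log2 fold change of 2.08 (SE 0.20, adjusted p = 7.46e-06, edgeR). Pla2g7, which degrades platelet-activating factor, rose by 2.87 (SE 0.37).

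Of 17 cytokine and chemokine genes 13 were tested, 5 rose and 2 fell, with a median of 0.29. The chemokine genes Ccl3 and Ccl7 rose from between 0 and 6.59 to between 30.3 and 75.5 CPM and from between 0 and 1.25 to between 15 and 134 CPM, and Ccl4 was called higher (2.42), a call lost with at least 3 of the 4 rule markers, with a marker sum of at least 50 per 10000 and in KO libraries alone. The log2 fold change of Ccl3 was 4.33 (SE 0.46), or 5.35 without E14.5 KO replicate 2, and that of Ccl7 was 6.46 (SE 0.80). At E14.5 these rested on 5, 0, 2 and 14 UMIs of Ccl3 and 2, 1, 2 and 0 of Ccl7. Csf1, a macrophage growth factor, rose by 2.31. Il13, a type 2 cytokine, fell from between 32.5 and 43 to between 3.7 and 9.12 CPM (-2.22, SE 0.24, adjusted p = 1.47e-05, edgeR), while its neighbour in function Il4 had 69 to 116 and 66.6 to 80.7 CPM and did not pass the test (-0.15).

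The 20 transcription factors tested were divided, with 6 that rose, 8 that fell and a median of -0.10. In the cells that met both definitions 19 were tested, of which 6 rose and 4 fell. Of all 7906 genes tested in those cells 20.5% were higher and 19.3% lower. Id2, an inhibitor of basic helix-loop-helix factors, rose from between 422 and 512 to between 828 and 1248 CPM (1.32, SE 0.12, adjusted p = 3.73e-06, edgeR) and Cebpb by 1.09 (SE 0.12). Lyl1, a helix-loop-helix factor of blood progenitors, had 79.4, 79.2, 69 and 96.5 CPM at E14.5 and 16.3, 17.9, 24 and 24.4 CPM at E16.5 (-1.88, SE 0.16, adjusted p = 3.06e-06, edgeR). Gata2, a central regulator of mast cell identity, fell from between 676 and 822 to between 388 and 552 CPM (-0.52, SE 0.10, adjusted p = 0.00108, edgeR), and its change was -0.26 in the cells that met both definitions (adjusted p = 0.0184, edgeR). Gata1 was called lower (-0.44, edgeR adjusted p = 0.0325), a call lost without any of 5 libraries and in the cells that met both definitions (adjusted p = 0.309). Mitf was called higher (0.55), a call also lost without any of 5 libraries (adjusted p up to 0.0923, without E16.5 KO replicate 1).

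Adhesion and homing genes had no common direction. Of 20 genes 13 were tested, 4 rose and 3 fell, with a median of 0.016. The falling genes Itga4, Itgb7 and Cx3cr1 have known parts in homing, the first pair as the subunits of the integrin that guides mast cell progenitors into the intestine and Cx3cr1 as the fractalkine receptor. Itga4 had 98.8, 130.1, 171 and 126 CPM at E14.5 and 25.4, 24.7, 34.8 and 33.3 CPM at E16.5, and the ages did not overlap (-2.06, SE 0.14, adjusted p = 7.2e-07, edgeR). Itgb7 fell to 27.4 to 32.3 CPM (-1.23, SE 0.17) and Cx3cr1 to 7.81 to 17.4 CPM (-2.38, SE 0.19). The granule membrane protein Cd63 rose by 0.95, and the hyaluronan receptor Cd44 rose too (adjusted p = 7.87e-05, edgeR).

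The 10 genes with the largest fall were Plac8, Itga4, Pim1, Mcm3, Hba-a2, Mns1, Chchd10, Nr4a1, Dut and Mcm5. Plac8, a gene of immature and circulating blood cells, had 102, 190.4, 77.3 and 85.7 CPM at E14.5 and 13.7, 19.9, 28.2 and 20.7 CPM at E16.5 (-2.33, SE 0.27, adjusted p = 3.14e-05, edgeR). The kinase gene Pim1, a target of cytokine signalling, fell from between 182 and 305 to between 42.6 and 67.2 CPM (-1.89, SE 0.12). Mcm3, Mcm5 and Dut act in DNA replication and nucleotide supply, and they fell by 1.60, 1.36 and 1.39 on the log2 scale. Hba-a2, a globin gene of red blood cells, had a mean of 634 CPM in the gate at E14.5 and 198 CPM at E16.5, and its level was higher outside the gate, at 1359 and 333 CPM in other cells and 1082 and 389 CPM in macrophage-gate cells. Of 8 erythroid genes 6 were tested in the gate, where 4 rose and 2 fell, Hba-a2 among the latter, and their sums were 2451 to 8327 CPM at E14.5 and 9811 to 16552 CPM at E16.5, against 6528 to 13138 and 15091 to 31855 CPM in other cells. Nr4a1 (-1.47) is an immediate early gene of the dissociation stress list, of whose 17 genes 16 were tested, 6 rose and 4 fell, with a median of 0.37. The part of erythroid RNA and of dissociation in these values was not tested.

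Cycling mast cells were less frequent at E16.5. A cell was called cycling when at least 2 of 12 mitotic genes (among them Mki67, Top2a, Birc5 and Cdk1) were detected after thinning to 2000 UMIs. The share was 43.5, 47.5, 44.0 and 43.2% at E14.5 and 17.7, 23.5 and 30.8% at E16.5 in WT replicates 1 and 2 and KO replicate 2, with 33 cycling cells of 200 in KO replicate 1. No library of 1 age reached the other age, and the means were 44.6% ± 1.99 and 22.1% ± 6.56 (SD, n = 4 libraries each). The difference of -22.4 percentage points had p = 0.0286, the smallest the exact permutation test (two-sided) can give with 4 libraries against 4. Without thinning the shares were 73.0 to 82.2% at E14.5 and 26.0 to 46.3% at E16.5. These shares come from 1 random draw of UMIs per cell. Over 100 draws the shares averaged 44.9 to 51.8% at E14.5 and 17.2 to 33.9% at E16.5 (SD over draws 1.01 to 3.57 points per library), the difference averaged -25.0 points, and the ages did not overlap in any draw. E14.5 WT replicate 1, at 43.5% in the single draw, averaged 51.8% over the 100. In the cells that met both definitions the same draws gave an average difference of -24.9 points, the ages did not overlap in 99 of 100 draws, and E16.5 KO replicate 2 was the highest library of its age at 38.8%.

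**Figure D5:**
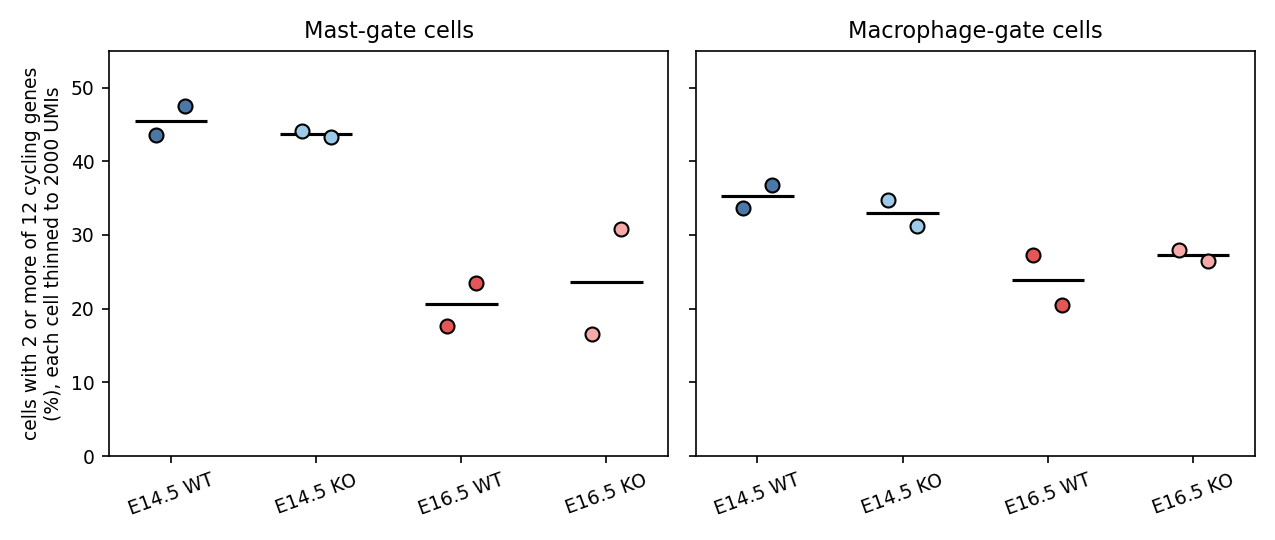
Share of cells called cycling in mast-gate (left) and macrophage-gate cells (right), with 1 point per library and a bar at the mean of the 2 libraries of a group. Mast-gate cells fell from 43.2 to 47.5% at E14.5 to at most 30.8% at E16.5, and macrophage-gate cells from 31.2 to 36.8% to 20.5 to 28.0%.

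Macrophages of the same libraries cycled less at E16.5 too. Their share was 34.1% ± 2.33 at E14.5 and 25.6% ± 3.42 at E16.5, a difference of -8.58 points (p = 0.0286, exact permutation test), although over 100 draws the ages did not overlap in 73. The change in mast cells differed from that in macrophages by -13.9 points (exact permutation p = 0.0286), in a contrast that was not among the planned comparisons. On the level of genes, 34 of 41 tested S phase genes and 28 of 54 G2M genes were lower at E16.5 in the gated cells and none was higher, with medians of -0.91 and -0.54. Mki67 fell by 1.16 (SE 0.22, adjusted p = 0.000958, edgeR) and Top2a by 0.76 (SE 0.13). Genotype made no difference that could be separated (0.60 points, exact permutation p = 0.944), and KO replicate 2 was the highest library at E16.5.

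Within E16.5 several of the genes that were higher at that age were detected in the same cells. This is a description of the E16.5 cells that met both definitions, thinned to 2000 UMIs, which share their libraries and their depth. In the 180 cells with a Mcpt4 UMI, Mrgprb1 was detected in 19.4 to 47.3% per library and in the 595 cells without one in 7.53 to 12.7%. For Mrgprb2 the shares were 31.0 to 43.6% and 8.86 to 17.3%, and for Ramp1 38.7 to 54.5% and 17.1 to 26.0%. Cells with Mcpt4 were called cycling in 4.76 to 32.3% and cells without in 20.3 to 37.0%, lower in 4 of 4 libraries. Calca was higher in cells with Mcpt4 in only 2 of 4 libraries (9.68 to 47.6% against 11.6 to 39.6%), but cells with a Ctla2a UMI carried Calca in 36.2 to 58.3% against 2.31 to 23.6% of cells without one, higher in 4 of 4 libraries.

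Transcripts of several other cell types rose in the gate with age. All 8 fibroblast genes were higher at E16.5 and summed to 1101 to 1492 CPM at E14.5 and 4471 to 7468 CPM at E16.5, against 10774 to 13864 and 16329 to 22754 CPM in other cells. Of 8 keratinocyte genes 6 were higher, with sums of 57.5 to 497 CPM and 502 to 2846 CPM. Krt17, Krt14 and Krt5, among the largest rises, belong to this type. The age change of all 8 was lower in KO than in WT libraries, with a median age by genotype term of -4.05. In the cells that met both definitions the fibroblast genes summed to 659 to 1250.0 CPM at E14.5 and 2377 to 3418 CPM at E16.5. Of the 8 keratinocyte genes 6 were higher in those cells too, with a median log2 fold change of 2.72. Of all genes tested in those cells 20.5% were higher. Macrophage genes summed to 143 to 175 and 245 to 347 CPM in the gate, against 24380 to 36955 CPM in the macrophage gate. The mast cell rule limits C1qa and C1qb, and the macrophage gate requires C1qa, C1qb, C1qc or Csf1r. The gap between these sums was therefore set in part by how the cells were chosen. Both tested neutrophil genes were higher (log2 fold changes of 5.02 and 7.48), as were 4 of 5 T, NK and ILC genes (up to 4.55). In the cells that met both definitions no neutrophil gene could be tested, and 3 of 4 T, NK and ILC genes were higher. Of 3 tested megakaryocyte genes 2 were higher and 1 lower, and none of 3 tested endothelial genes was called. The muscle actin gene Acta1 stood at 141 CPM in other cells and at 141 ± 121 CPM in the gate at E16.5. BC100530 had a mean of 7.34 CPM at E14.5 and 119 CPM at E16.5 in the gate, against 73.4 and 537 CPM in other cells. Its call was lost in KO libraries alone. The part of this RNA in the age differences was not tested, and in other cells at E16.5 the mean level was 0.961 CPM for Calca, 4.9 CPM for Tac1 and 0.455 CPM for Slc6a4.

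The age change was then set against that of macrophages in the same libraries, with library as a block. Of 10994 genes 958 changed more upward in mast cells (8.71%) and 817 more downward (7.43%), or 16.1% in all (30.1% at an unadjusted p under 0.05), and without E14.5 KO replicate 2 the number fell to 1145. Tac1 (4.89, SE 1.0, adjusted p = 0.00386, edgeR) and Ctla2a (4.65, SE 0.52, adjusted p = 3.14e-05) rose by more in mast cells. For Calca the difference was 4.84 (SE 1.12, adjusted p = 0.0087, edgeR), and it ended without E14.5 WT replicate 2 (adjusted p = 0.375), macrophage-gate cells holding 0.569 and 1.81 CPM. The chemokine genes Ccl7 and Ccl3 led the upward list (6.21 and 5.71), from macrophage levels of 277 and 308 CPM at E14.5 and 273 and 114 CPM at E16.5. In the downward list Plac8 (-2.34), Cx3cr1 (-2.09), Lyl1 (-1.84), Pim1 (-1.67) and Mcm3 (-1.40) fell by more in mast cells, and the difference for Alox5 was -4.00 (SE 0.28, adjusted p = 7.26e-07, edgeR). Ly86, Clec4n, Cd68 and Lpl, also in the upward list, are at high levels in macrophages. Ly86 and Clec4n lost the call in the cells that met both definitions. For Cd68 the difference was 4.09, or 4.25 in the cells that met both definitions. Its mean was 1.47 and 31.4 CPM in the gate and 430 and 483 CPM in macrophage-gate cells, at E14.5 and E16.5.

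Between genotypes the mast cells showed almost no called difference. Of 8686 genes 1 was called (0.0115%) and 278 had an unadjusted p under 0.05 (3.2%). The called gene was Lor, which encodes the cornified envelope protein loricrin of keratinocytes. It had 0.625 to 0.941 CPM at E14.5, 153 and 282 CPM in E16.5 WT and 9.12 and 0.739 CPM in E16.5 KO, with a log2 fold change of -4.98 (SE 0.58, adjusted p = 0.00845, edgeR). The call ended when either E16.5 KO library was left out (edgeR adjusted p up to 0.0746), and it also ended under DESeq2 and with the replicate block. In other cells the mean over both ages was 672 CPM of Lor in WT and 16.7 CPM in KO. All 8 genes of the keratinocyte list had log2 fold changes below 0 in the gate, with a median of -0.91, and none of these was called.

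None of the mast cell function genes listed above, outside the rule, was called. The 4 genes of the rule chose the cells and are given as a description. Their log2 fold changes were -0.10 (SE 0.12) for Cpa3 and -0.05 (SE 0.12) for Cma1. Those of Tpsb2 and Mcpt4 were -0.03 (SE 0.18) and -0.11 (SE 0.42). Genotype was not tested in cells chosen by the other markers. Hdc stood at -0.16 (SE 0.12), Kit at 0.15 (SE 0.13) and Calca at -0.84 (SE 0.36, adjusted p = 1, edgeR). The age by genotype term was called for 1 of 9156 genes (0.0109%), with 377 at an unadjusted p under 0.05 (4.12%). That gene was the basal keratin gene Krt15, which gave 5, 3, 54 and 77 UMIs at E14.5 and 408, 321, 86 and 101 at E16.5 in gated cells (-5.13, SE 0.39, adjusted p = 0.000112, edgeR), against a mean of 319.5 and 755 CPM in other cells. All 8 genes of the keratinocyte list had an age by genotype term below 0, with a median of -4.05. All 8 had an unadjusted p under 0.05 in the edgeR test, against 4.12% of all genes. Both called genes are keratinocyte genes, and their level in the gate was lower than in the other cells of the same libraries.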

How the data were processed

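Droplet libraries (10x Chromium 3′) of embryonic back skin and of P0 epidermis were read, 13 in all. The input was the UMI counts per gene and cell that the authors deposited for each library, with 27998 gene identifiers. The submitters' processing notes name Cell Ranger 1.3.1, mm10 and Seurat. Cells were filtered and gated as stated in the report, UMIs were summed per library, and libraries were grouped by the deposited age and genotype labels. The members and gene lists were chosen with earlier results of these data known. Unused sample columns numbered 0.

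Sums were fitted with edgeR 4.0.16 (filterByExpr, TMM, quasi-likelihood test, threshold 0.05 after Benjamini-Hochberg adjustment) in R 4.3.3, with DESeq2 1.42.0 as an alternative. Age was fitted with genotype, genotype with age, and the contrast with macrophages with library as a block. Shares were compared by two-sided exact permutation tests over libraries. Thinned cells kept 2000 UMIs, in 1 random draw unless 100 are named. Cells outside the gate were thinned in a sample of 1500 per library. The mean log2 CPM of a gene named for its fold change was at least 6 and its groups did not overlap, with up to 10 genes per direction and without ribosomal, mitochondrial and predicted genes. Function lists were described whole. Doublets were kept in the gate, and leaving out the top 5% by Scrublet score was an alternative. Each fitting step was tested on simulated data. Other alternatives were another normalization, no filter on low counts, stricter gates, library UMI sums reduced to the smallest, 1 genotype or age alone, leaving out each library and a block for the replicate number. Intervals and floors (3 counts) cover counting error only.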

Additional observations from a re-analysis of the deposited data

Results flagged for a closer look

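In 4 of 52 groups of 4 libraries examined gene by gene, 1 library stood apart from the other 3 by Dixon's criterion, which chance alone meets in about 1 in 20 groups. Acta1 stood at 4.70 CPM in E14.5 WT replicate 2 against 1.83 to 1.88 CPM in the other E14.5 libraries. BC100530 stood at 24.5 CPM in E14.5 KO replicate 2 against 0 to 4.11 CPM. Dut stood at 295 CPM in E14.5 KO replicate 1 against 346 to 349 CPM. Mns1, a gene of sperm and ciliary structure, stood at 346 CPM in E14.5 KO replicate 2 against 257 to 269.6 CPM.

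Effects that differed between groups were the age change of mast-gate against macrophage-gate cells, called by edgeR for 1775 genes, and the age change of WT against KO mast cells, called for 1 gene (Krt15). The fall of the cycling share with age differed between mast-gate and macrophage-gate cells by -13.9 percentage points (exact permutation p = 0.0286). The KO effect on the number of mast cells per macrophage differed between E16.5 and E14.5 by -1.40 on the log2 scale (exact permutation p = 0.0556, the smallest this design allows). The cycling and ratio contrasts were not among the planned comparisons.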

How the results depend on the processing

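Calls between the ages numbered 2930 to 3451 with 1 library left out, and 1430 in KO libraries alone, where 62.3% were higher against 52.4% over both genotypes. In cells chosen by other markers they numbered 2634 to 3222 with 1 library left out. The contrast with macrophages gave 1145 to 1947 calls with 1 library left out and 919 by DESeq2, where 63.3% were higher against 54.0% by edgeR, and Ccl6 reversed to -3.10 with a marker sum of at least 50 per 10000. Calls between genotypes numbered 0 to 11 with 1 library left out, 2 by DESeq2, 122 with no filter, 3 with at least 3 of the rule markers, 6 without high Scrublet scores, 3 with library UMI sums reduced to the smallest, 7 at E14.5 alone and 16 at E16.5 alone. The age by genotype term gave 1 to 17 calls with 1 library left out, 11 by DESeq2, 70 with no filter, 4 with at least 3 rule markers, 9 with a sum of at least 10, 3 without high Scrublet scores and 6 each with sums reduced likewise, with a sum of at least 50 and with both marker definitions. The share difference on the log2 scale ran from 0.15 to 0.58 between ages (0.58 without E14.5 KO replicate 1) and from 0.11 to 0.51 between genotypes with 1 library left out. The cycling difference between ages ran from -25.3 to -20.6 points, and that between genotypes from -2.99 (without E16.5 KO replicate 2) to 4.18, and it was also reversed at -0.41 without E14.5 WT replicate 1 and -0.86 without E16.5 WT replicate 1. The cause of these shifts was not tested. Of 139 results on single genes, 104 kept the call in every alternative run. The marker sum of 50, both marker definitions, the crossed numbers and the 100 draws were chosen after seeing the data.

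Replicate numbers did not pair the libraries (correlations of deviations of 0.034 at E14.5 and -0.18 at E16.5). With a replicate block there were 3567 calls between ages and 0 between genotypes (273 at an unadjusted p under 0.05 in edgeR), with numbers crossed at E16.5 there were 8, and the share differences were 0.39 and 0.31 (exact permutation p = 0.25 each). Gated cells held fewer UMIs at E16.5, and 2 libraries per group limit the genotype contrasts.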
